A study of Mus musculus with 15 samples.

Results

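The comparison described here is between tumor-associated macrophages (TAMs) of 2 kinds of mouse liver tumor, those grown from cells that overexpressed miR-451a and those grown from cells that overexpressed miR-144. It uses 10 of the 15 RNA-seq samples of the study, 5 per miRNA, and the 5 samples from control tumors entered no test except an alternative fit of all 3 groups. All of the tumors came from Hepa1-6, a mouse hepatoma line, which carried luciferase and was infected with a lentivirus for 1 of the miRNAs before inoculation into the liver of C57BL/6 mice. Both miRNA groups thus share the host strain, the line, the luciferase and a lentivirus, and differ by the labels only in the miRNA. The control tumors came from Hepa1-6 cells infected with a control lentivirus. The age and sex of the mice are not given in the labels. TAMs were sorted with antibodies to CD11b and F4/80 from tumors excised about 3 weeks after inoculation, and the miRNA was delivered to the tumor cells, not to the macrophages. The labels do not say that each sample came from a separate mouse, and the study's legend for the TAM sequencing names fewer replicates than the table holds samples per group. The samples of a group may therefore not be separate animals, and the p-values below measure the spread between these samples only.

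miR-144 and miR-451a are made from neighboring hairpins of 1 primary transcript and are best known from red blood cell development. A miRNA guides Argonaute proteins to messenger RNAs through base pairing of its seed, the bases near its 5′ end, so miRNAs with different seeds have different sets of direct targets. TAMs are macrophages that live in the tumor, and their state ranges from inflammatory, with interferon and cytokine genes, to alternatively activated, with scavenger receptors and tissue repair genes. The question was whether the macrophages differed according to which member of the cluster the tumor cells carried.

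The mature sequences are shown because the 2 tumor groups differ by the labels in the miRNA given to the tumor cells. The study reported that added miR-144 also raised miR-451a in HepG2, a human line. Whether the miR-144 tumors of these samples carried more miR-451a was not tested here. They were taken from RefSeq (GRCm38.p6, plus strand of chromosome 11), are written 5′ to 3′, and have the seed, bases 2 to 8, in capitals.
mmu-miR-144-3p: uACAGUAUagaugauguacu
mmu-miR-144-5p: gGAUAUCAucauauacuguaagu
mmu-miR-451a: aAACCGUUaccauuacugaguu
No 2 of the 3 seeds are the same. miR-144-5p lies at chr11:78073010-78073032, miR-144-3p at chr11:78073047-78073066 and miR-451a at chr11:78073186-78073207. The Mir144 hairpin (chr11:78073005-78073070) and the Mir451a hairpin (chr11:78073170-78073241) are separated by 99 bp. The rows of both hairpins were listed at 0 FPKM in all samples, and these libraries of longer RNA are not a measure of the mature miRNAs.

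The table gives FPKM, fragments scaled to transcript length and to the mapped fragments of the sample, for 55335 genes, of which 28353 were above 0 in at least 1 of the 10 samples. Genes were tested if their average over the 10 samples reached 1 FPKM, which left 11476. The steps between low values implied 18.1 to 27.5 M fragments in the miR-144 samples and 15.7 to 30.8 M in the miR-451a samples. Macrophage genes were abundant in all 10 samples. Adgre1, the gene of F4/80, ranged from 334 to 394 FPKM in the miR-144 samples and from 336 to 380 in the miR-451a samples. Csf1r, the receptor for macrophage colony-stimulating factor, had 691 ± 18.5 and 693 ± 30.7 FPKM (mean ± SD, n = 5, here and below), with a log2 difference of 0.00 (95% interval −0.08 to 0.09). Of the marker lists of other cells, 5 of 11 T cell genes, 5 of 9 NK cell genes and 12 of 16 hepatocyte and tumor cell genes were listed at 0 in all 10, among them Cd3e, Cd3g, Ncr1, Alb and Apoa1. Other members were present, among them Il7r and Cd4 of the T cell list at 17.6 to 25.1 and 5.12 to 9.45 FPKM. Trf of the hepatocyte list had 125 to 167 FPKM. In the B cell list 4 of 11 genes were tested. Ighm of that list had 74.7 to 98.8 FPKM, Cd22 3.27 to 4.11, Igkc 0.835 to 2.24 and Cd79b 1.004 to 1.62. Cd79a, a B cell receptor subunit, was at or below 0.1096.

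The samples of the 2 miRNA groups were as far from each other as samples of 1 group. Distances were the root mean square difference of log2(FPKM + 1) over the tested genes. The median distance was 0.264 within the miR-144 group (0.219 to 0.279), 0.247 within the miR-451a group (0.231 to 0.299) and 0.249 between the groups (0.223 to 0.304). Every distance from a miRNA sample to a control sample was larger, at 0.581 to 0.682. The ranges within and between the miRNA groups overlapped almost wholly.

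No gene passed the test between the groups. Genes were compared with limma on log2(FPKM + 1) with Benjamini-Hochberg adjustment over all 11476 genes, and differences are given as miR-451a minus miR-144. The count with an adjusted p under 0.05 was 0 (0% of genes), and the smallest adjusted p was 0.550, for Cbr2. At an unadjusted p under 0.05 there were 523 genes (4.56%), against the 5% that a uniform distribution gives. Of these, 346 (3.01%) were higher and 177 (1.54%) lower in miR-451a TAMs, a share of 66.2% higher. That split depended on the scale, with 51.1% higher after centring the samples on their medians, 55.2% after quantile normalization and 77.4% after rescaling to TPM, in which every sample sums to the same total. The samples of the 2 groups did not overlap in 100 genes (0.871%), of which 66 (0.575%) were higher and 34 (0.296%) lower in miR-451a TAMs.

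Most measured differences were small. The median size of the log2 difference was 0.0415, and 90% of the genes were within 0.140 and 99% within 0.370. Only 27 genes differed by more than 0.58 and 6 by more than 1 on the log2 scale. The median difference over all genes was 0.0056.

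**Figure D1:**
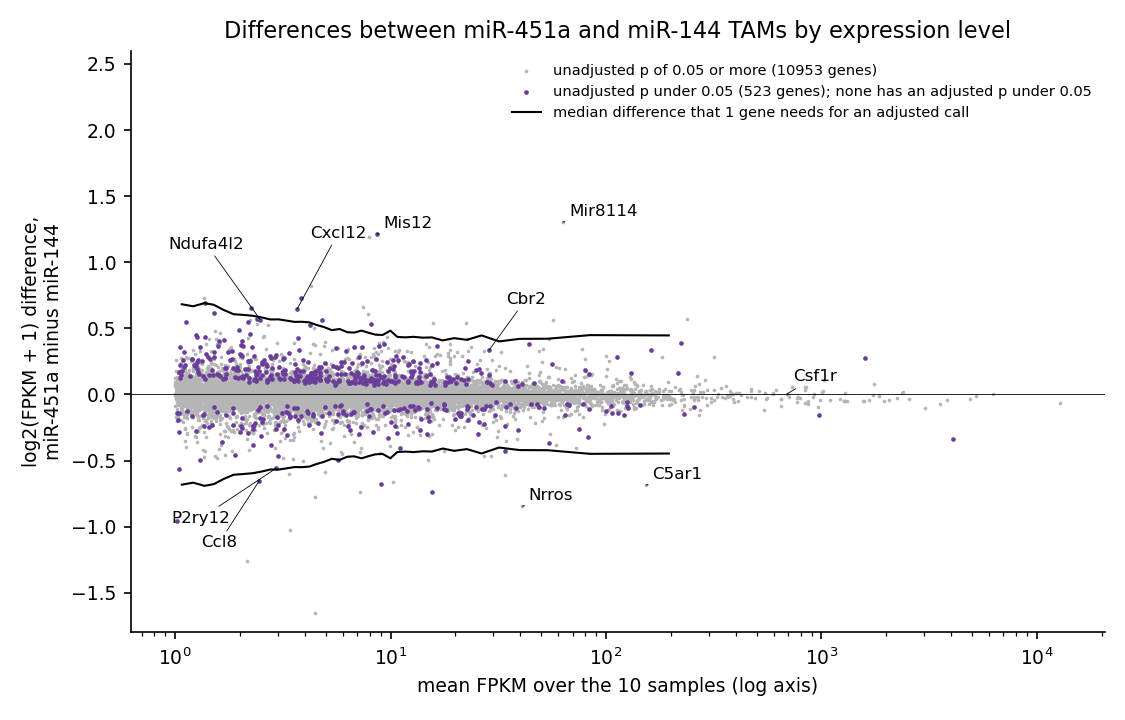
Each point is 1 of the 11476 tested genes, with its mean FPKM over the 10 samples on a log axis and its log2(FPKM + 1) difference, miR-451a minus miR-144. The 523 genes with an unadjusted p under 0.05 are purple, the black lines give the median difference that 1 gene needs for an adjusted call in 40 bins of level, and Mir8114, Mis12 and Nrros lie beyond the lines but have a wide spread between samples.

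The design could bound differences closely for single genes, and could call only larger ones. The 95% interval of a gene had a median half-width of 0.131 on the log2 scale, equal to 1.10-fold on the FPKM + 1 scale, and the middle 80% of genes lay between 0.0815 and 0.298. On that scale the interval lay wholly inside a 1.5-fold change in either direction for 10911 genes (95.1%) and inside a 2-fold change for 98.9%. With a pseudocount of 0.1 FPKM, 10430 intervals (90.9%) lay inside 1.5-fold and the median half-width was 0.159. These intervals hold for 1 gene at a time. With intervals widened to hold for all 11476 genes together, 53.4% lay inside 1.5-fold and 83.1% inside 2-fold. To be called alone among all genes, a gene needed a median log2 difference of 0.512 (1.43-fold).

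Precision depended on the level of the gene. Genes of 1 to 2 FPKM had a median half-width of 0.170 and a needed difference of 0.664. Genes of 20 to 100 FPKM had 0.108 and 0.423. Above 100 FPKM the values were 0.114 and 0.447, so precision did not improve further. A difference of the median size, 0.0415, was below what could be called at any level.

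**Figure D2:**
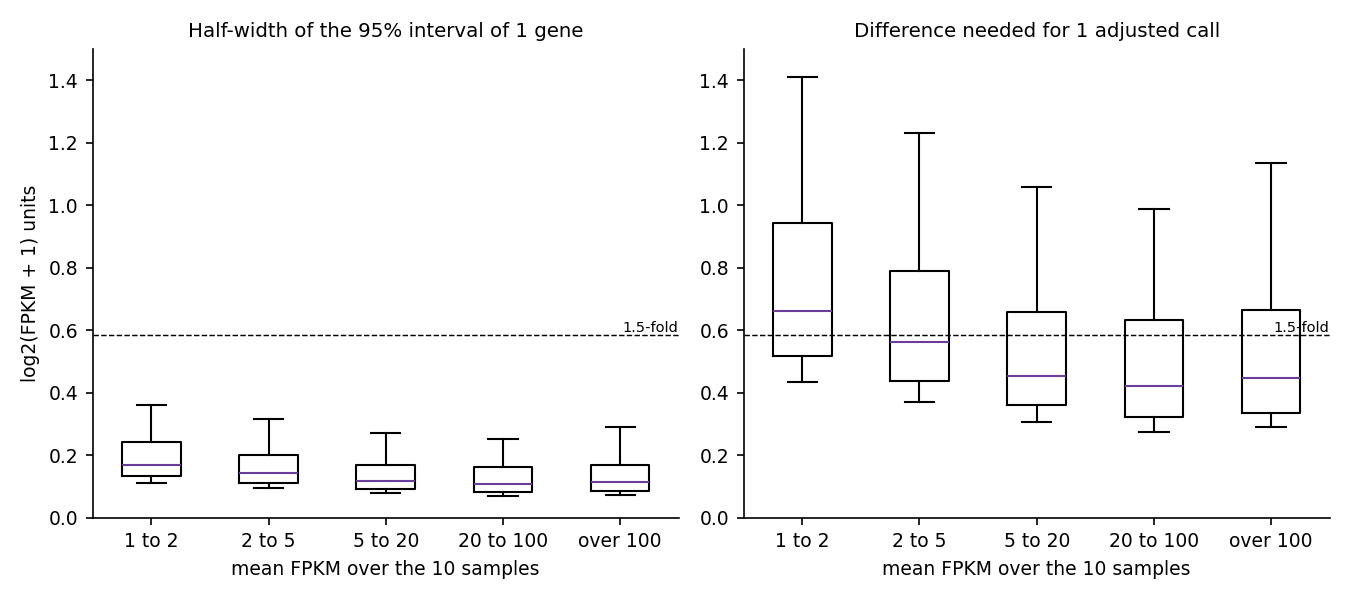
Half-width of the 95% interval (left) and difference needed for a single adjusted call (right), both in log2(FPKM + 1) units, for the tested genes in 5 classes of mean FPKM. Boxes give the quartiles with the median in purple, whiskers the 10th and 90th percentiles and the dashed line a 1.5-fold change, and the lowest class has the highest medians, 0.170 and 0.664.

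Cbr2, a carbonyl reductase and a known marker of tissue-resident macrophages, had the smallest p of all genes. The miR-144 samples had 25.2, 25.3, 23.4, 27.2 and 25.2 FPKM and the miR-451a samples 31.6, 32.5, 33.9, 34.1 and 28.8. All 5 miR-451a samples were above all 5 miR-144 samples. The log2 difference was 0.34 (95% interval 0.22 to 0.45), the adjusted p in limma 0.550, and Cbr2 needed 0.452 for a call. Control samples had a mean of 33.9 FPKM.

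P2ry12, a receptor for ADP that is typical of microglia, had the smallest p among genes with lower values in miR-451a TAMs. Its FPKM was 3.20, 3.40, 4.28, 4.36 and 3.24 in the miR-144 samples and 1.85, 2.06, 2.68, 2.10 and 2.21 in the miR-451a samples. The groups did not overlap, and the difference was −0.56 (−0.76 to −0.36). P2ry12 belongs to a list of 20 tested genes of homeostatic microglia, and the other members did not share its direction as a group, with 14 of 20 differences above 0 and a median of 0.04. Over all tested genes 54.1% of the differences were above 0.

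Other genes with a small p concerned different processes. Ndufa4l2, a mitochondrial protein that is induced by hypoxia, had 2.09, 2.26, 1.74, 1.85 and 1.11 FPKM in the miR-144 samples and 3.84, 3.45, 2.77, 3.37 and 2.33 in the miR-451a samples, a difference of 0.57 (0.28 to 0.86). Its lowest miR-451a sample, 2.33, was just above its highest miR-144 sample, 2.26. Ccr2, the chemokine receptor that brings monocytes into tissue, had 0.939 to 1.16 FPKM in the miR-144 samples and 1.32 to 1.496 in the miR-451a samples, a difference of 0.22 (0.12 to 0.33). These levels are near the filter of 1 FPKM. Other genes of the monocyte list differed in level, with Ly6c2, the gene of the surface marker Ly6C, at or below 0.403 FPKM in all 10, Vcan at 2.49 to 3.59, Plac8 at 5.11 to 10.9 and F13a1, a coagulation factor subunit, at 3.58 to 16.1. F13a1 had a difference of 0.61 (−0.10 to 1.33) and Plac8 one of −0.19 (−0.62 to 0.25). Klk1b11, a kallikrein of a family of near-identical genes and uncertain for that reason, had 6.47 ± 1.29 and 9.70 ± 0.934 FPKM. Sap25, Khsrp, a splicing and RNA decay factor, and Gpbp1 were 3 further genes with higher values that the rule for named genes selected by p, with differences of 0.26, 0.11 and 0.29.

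Among the genes with lower values in miR-451a TAMs, Apex1, a DNA repair endonuclease, had 10.3 to 11.4 FPKM in the miR-144 samples and 8.62 to 9.82 in the miR-451a samples. Its groups did not overlap, with a difference of −0.21 (−0.30 to −0.12). Mmp12, the macrophage metalloelastase, had 14.8 ± 0.822 and 12.9 ± 0.446 FPKM, and the lowest miR-144 sample, 13.4, lay within the miR-451a range of 12.3 to 13.5. Fabp4, a fatty acid binding protein of macrophages and fat cells, had 20.8 to 23.1 FPKM in the miR-144 samples and 18.9 to 20.6 in the miR-451a samples. Tstd3, Riox2 and Cmtr2 had differences of −0.20, −0.23 and −0.29. Mir6919 lies within Mgat4b on the same strand, so its fragments cannot be told from those of that gene, and it had a difference of −0.56. The adjusted p was 0.550 for Cbr2 and P2ry12 and above that for every other named gene.

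**Figure D3:**
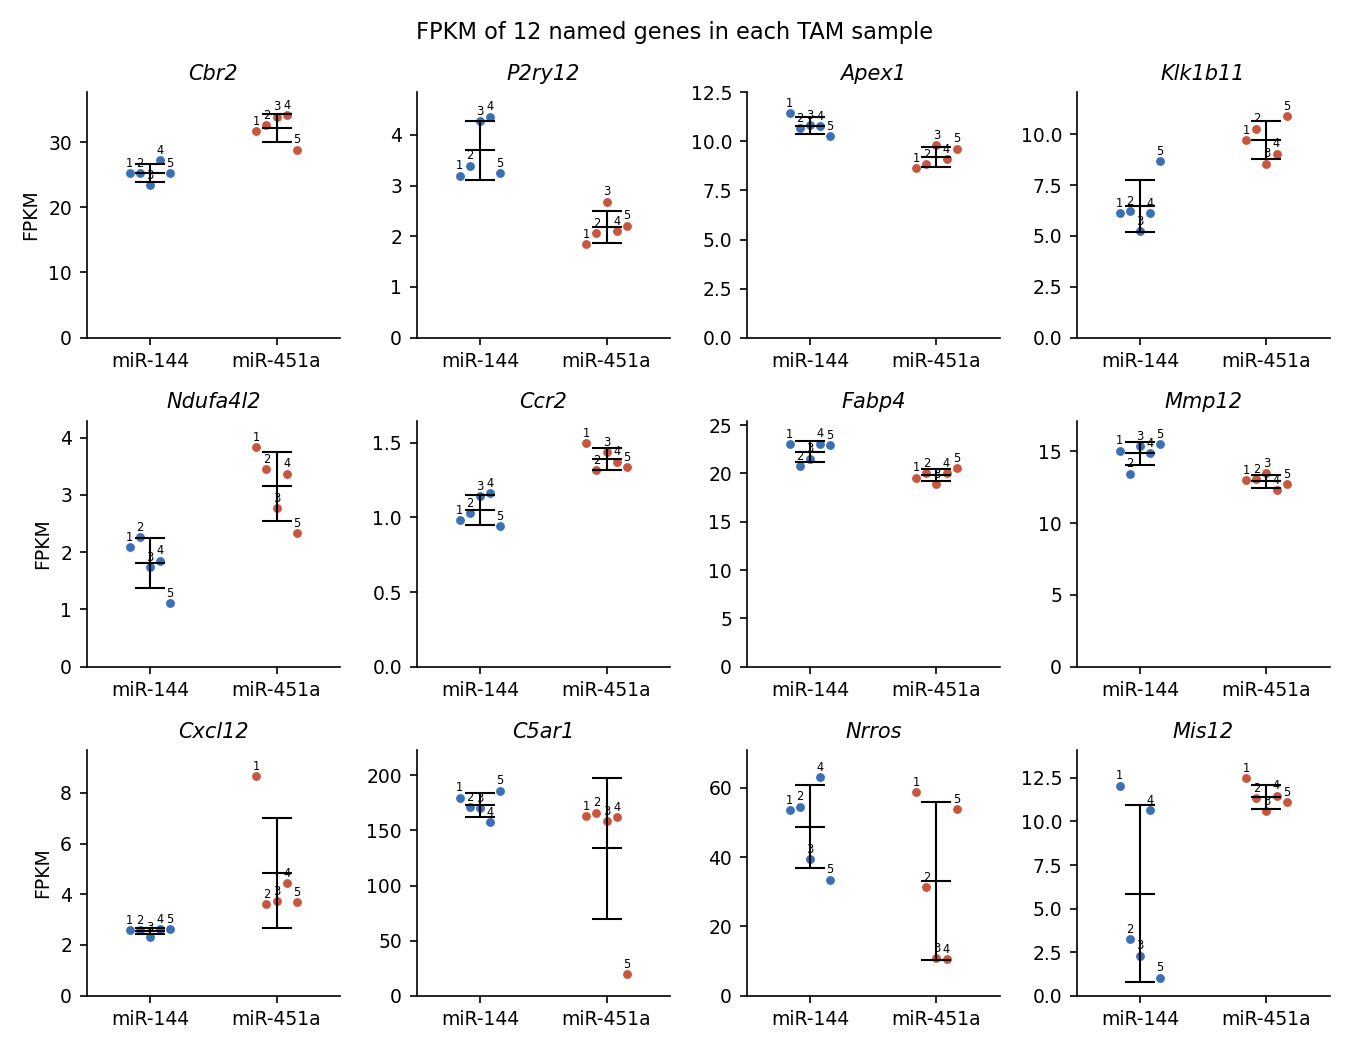
FPKM of 12 genes in each sample, with the sample number beside each point, the miR-144 group in blue and the miR-451a group in red, and bars for the mean ± SD of 5 samples. The upper 8 panels hold genes with a small p, and in the lower row 1 sample of Cxcl12 (8.66 FPKM), 1 of C5ar1 (19.7), 2 of Nrros and 3 of Mis12 stand apart from the rest.

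The largest differences belonged to genes with a wide spread between samples of 1 group, not to genes with a small p. Mis12, a kinetochore protein, had 12.1, 3.25, 2.30, 10.7 and 1.03 FPKM in the miR-144 samples and 10.6 to 12.5 in the miR-451a samples. Its difference of 1.21 (0.20 to 2.23) came from 3 miR-144 samples with values below 4 FPKM, while the other 2 were as high as the miR-451a samples. C5ar1, the receptor for complement C5a, had 158 to 186 FPKM in the miR-144 samples and 158 to 166 in 4 miR-451a samples, but 19.7 in miR-451a replicate 5. Without that sample the difference of C5ar1 went from −0.69 to −0.09. Nrros, which controls the activation of TGF-beta in macrophages, had 33.5 to 63.0 FPKM in the miR-144 samples and 58.7, 31.4, 10.9, 10.5 and 53.8 in the miR-451a samples, a difference of −0.85 (−1.90 to 0.21).

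Sar1a, a GTPase of transport vesicles, had 22.5, 22.2, 21.4, 21.4 and 10.1 FPKM in the miR-144 samples and 10.3, 6.30, 10.4, 10.6 and 20.7 in the miR-451a samples. Single samples of either group thus took the level of the other group. Mir8114 was between 0.0268 and 0.181 FPKM in 5 of the 10 samples and between 94.99 and 160 in the other 5, 2 of the miR-144 group and 3 of the miR-451a group, and it lies within Glul on the same strand. Hist2h2aa1, Ugt1a6b, AL732309.1 and mt-Ts2 also had samples near 0 beside samples of several FPKM in each group. Nfix, a transcription factor, had 1.39 to 5.47 FPKM in the miR-144 samples and 4.21 to 5.47 in the miR-451a samples. The half-width was above 1 in 48 genes, of which 34 (70.8%) overlap another gene of the table, compared with 54.6% of all tested genes.

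Itgam, which encodes the CD11b used for the sort, showed the same behavior. Its row ranged from 43.9 to 76.1 FPKM in the miR-144 samples and from 24.6 to 74.0 in the miR-451a samples, a difference of −0.38 (−1.12 to 0.35). A further row of the same symbol overlaps it on the same strand and had 28.4 to 74.9 FPKM in the miR-144 samples and 40.8 to 93.2 in the miR-451a samples. The sum of both rows was 103 to 120 FPKM in all 10 samples, with means of 110 ± 7.29 and 116 ± 4.48. The sum varied less than either row, and the 2 rows ran in opposite directions over the 10 samples, so the row of Itgam alone is uncertain.

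The factors that the study linked to the miRNAs were compared in the TAMs. The study reported lower HGF with miR-144 and lower MIF with miR-451a in tumor cells, tumor tissue and serum. The RNA of sorted TAMs is not a measure of those. Hgf, hepatocyte growth factor, had 3.71 ± 0.364 and 3.75 ± 0.242 FPKM, with a difference of 0.01 (−0.12 to 0.15). Mif, macrophage migration inhibitory factor, had 64.4 ± 9.09 and 66.9 ± 6.96 FPKM (0.06, −0.16 to 0.28). Cd74, the receptor for MIF and the invariant chain of MHC class II, had 673 ± 106 and 631 ± 65.1 (−0.09, −0.33 to 0.15). Cxcr4, a chemokine receptor that also pairs with CD74, had 187 ± 13.6 and 177 ± 12.7 (−0.08, −0.21 to 0.06). Ezh2, a histone methyltransferase, had 1.36 ± 0.163 and 1.32 ± 0.157 (−0.02, −0.17 to 0.12). Met, the receptor for HGF, was under the filter, at 0.359 to 0.506 FPKM and 0.303 to 0.490 FPKM. The intervals of all 5 tested genes lay inside a 1.5-fold change.

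A set of 49 gene families, with 1837 distinct tested genes, was then compared. The mean log2(FPKM + 1) of a family was computed in each sample, and the interval of the difference was obtained from the 252 ways of dividing 10 samples into 5 and 5, with no adjustment for the number of families. The samples of the groups overlapped in all 49 families. Family differences ranged from −0.06, for the chemokine ligands, to 0.08, for the cell cycle genes, 28 of them above 0 and 21 below. The median half-width was 0.0660, and in 48 families the farther bound was under 0.25. The exception was the type I interferon family. The interval left out 0 in 4 families, cell cycle, lipid-associated macrophage, V-ATPase and Kruppel-like genes, where 49 intervals at the 5% level would do so in 2.45 families. For 3 of them, all but the lipid-associated genes, it took in 0 under another scaling, pseudocount or filter.

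**Figure D4:**
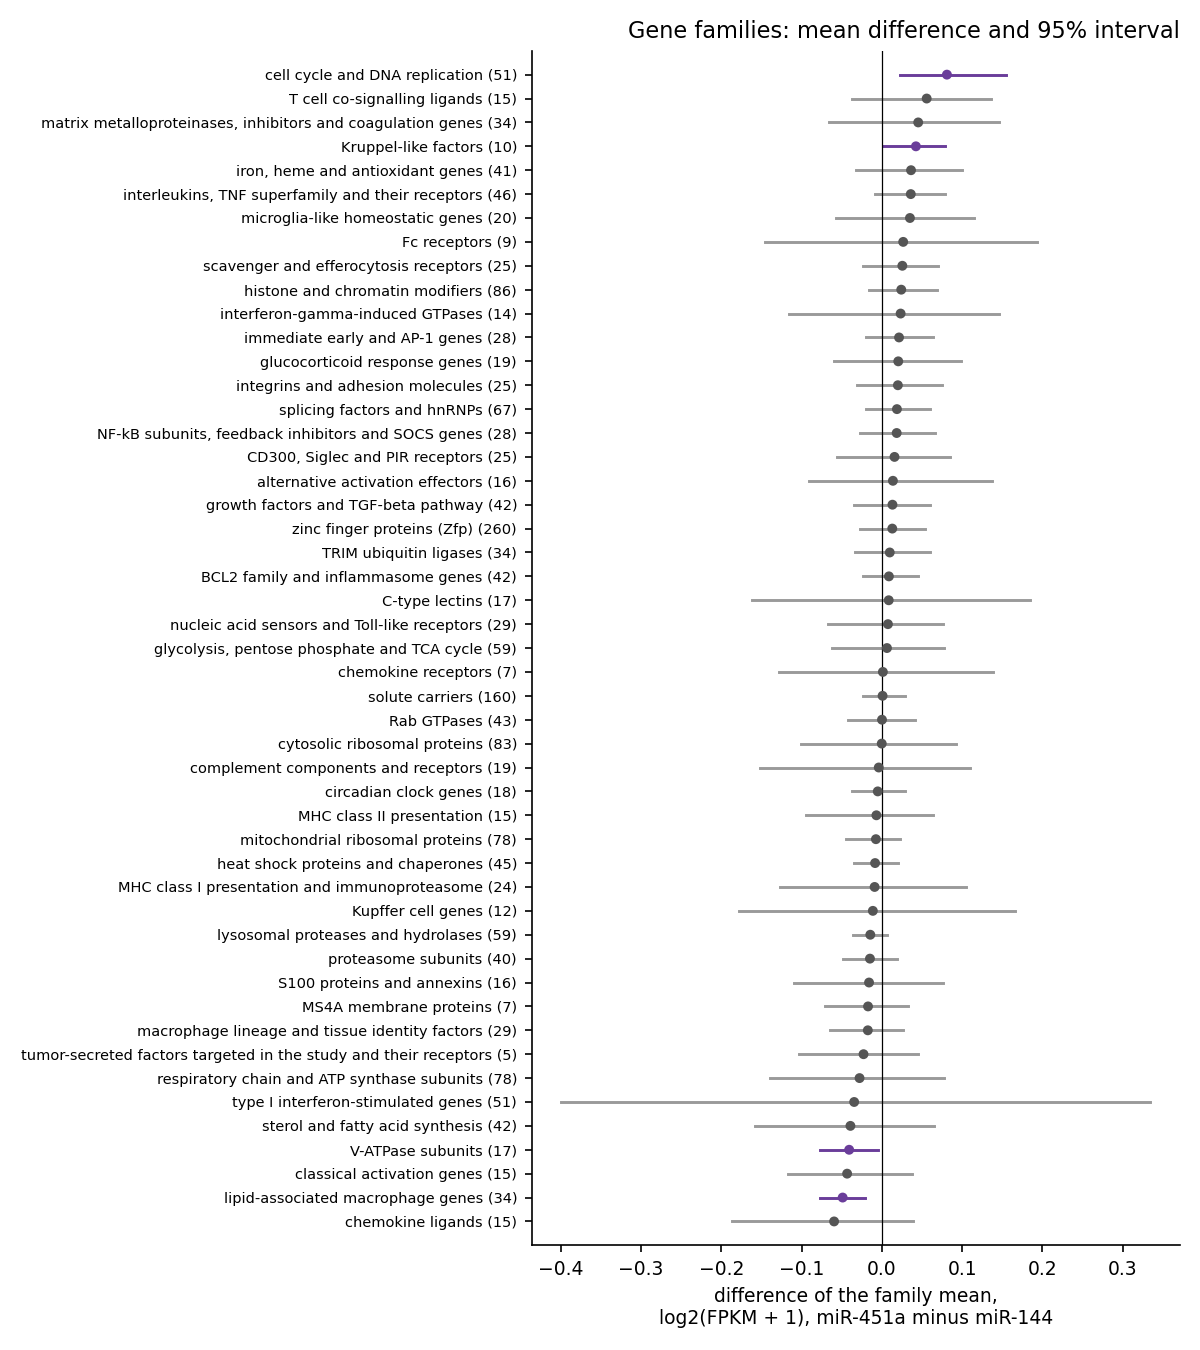
Difference of the family mean in log2(FPKM + 1), miR-451a minus miR-144, with its 95% interval from the exact permutation test, for 49 families with the number of tested genes in parentheses. The 4 families whose interval leaves out 0 are purple, and the type I interferon-stimulated genes have the widest interval, −0.40 to 0.33.

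The lipid-associated macrophage genes, which take up, bind and break down lipids, had a slightly lower mean in miR-451a TAMs. Of 34 tested genes, 25 had a difference below 0, where 54.1% of all tested genes were above 0. The median was −0.05 against 0.0056 for all genes. The family mean was 6.85, 6.83, 6.87, 6.88 and 6.86 in the miR-144 samples and 6.80, 6.80, 6.83, 6.82 and 6.80 in the miR-451a samples. Only miR-144 replicate 2 and miR-451a replicate 3 overlapped, and the difference was −0.05 (−0.08 to −0.02). The upper bound came close to 0 after quantile normalization (−0.0715 to −0.00184) and rescaling to TPM (−0.0687 to −0.000419). None of the members passed the adjusted test, 7 had an unadjusted p under 0.05 with a lower value and 1, Ank, with a higher value, and 5 did not overlap. Over all tested genes 1.54% were lower at that p and 0.871% did not overlap.

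The other 7 members with an unadjusted p under 0.05, beside Fabp4, were named after their values were seen, except Lipa and Nr1h3. Ank, a transporter of pyrophosphate, went the other way, with 17.2 ± 0.219 and 18.5 ± 0.335 FPKM without overlap. Fabp5, a fatty acid binding protein, had 243 ± 8.26 and 220 ± 10.3 FPKM and did not overlap. Lpl, lipoprotein lipase, had 112 ± 6.56 and 101 ± 4.29 FPKM. Lipa, the lysosomal acid lipase, had 127 to 137 FPKM in the miR-144 samples and 119 to 125 in the miR-451a samples, without overlap. Lgals3, galectin-3, had 1027 ± 62.1 and 924 ± 37.0 FPKM. Nr1h3, the oxysterol-sensing nuclear receptor LXR alpha, had 8.45 ± 0.454 and 7.46 ± 0.547 FPKM. Apoe, the main apolipoprotein of macrophages, had 4536 ± 596 and 3622 ± 693 FPKM, a difference of −0.33 (−0.63 to −0.04).

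The V-ATPase, the proton pump that acidifies lysosomes, followed with a family difference of −0.041 (−0.077 to −0.0044). Of 17 tested subunits, 12 were below 0, where 54.1% of all tested genes were above 0. At an unadjusted p under 0.05 were 5, all of them lower in miR-451a TAMs, against 1.54% of all tested genes. The interval took in 0 after quantile normalization (−0.0816 to 0.00433) and rescaling to TPM (−0.0691 to 0.00893). Atp6v1b2 had 78.2 to 81.9 FPKM in the miR-144 samples and 73.5 to 77.6 in the miR-451a samples, without overlap. Atp6v0d2, an isoform typical of osteoclasts and foamy macrophages, had 42.7 ± 5.73 and 35.2 ± 4.04 FPKM. The lysosomal proteases and hydrolases, 59 genes in the same organelle, had a difference of −0.01 (−0.04 to 0.01), with 2 genes each way at an unadjusted p under 0.05, against 3.01% higher and 1.54% lower over all tested genes. The sterol and fatty acid synthesis genes had 30 of 42 below 0 and a difference of −0.04 (−0.16 to 0.06). The smallest p in that family was that of Dhcr7, the last enzyme of cholesterol synthesis, with 5.70 ± 0.145 and 5.32 ± 0.234 FPKM. The lowest difference, −0.61 (−1.28 to 0.07), was that of Scd2, a fatty acid desaturase, with 29.95, 75.2, 24.001, 23.6 and 62.6 FPKM in the miR-144 samples and 23.4 to 26.3 in the miR-451a samples, so 2 miR-144 samples set it.

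Cell cycle and DNA replication genes had the largest positive difference, 0.08 (0.02 to 0.15). Of 51 tested genes 37 were above 0, with a median of 0.09, against 54.1% and 0.0056 over all tested genes. The family mean was 2.43, 2.47, 2.42, 2.40 and 2.42 in the miR-144 samples and 2.51, 2.63, 2.49, 2.47 and 2.46 in the miR-451a samples. The highest value was that of miR-451a replicate 2, and miR-144 replicate 2 overlapped with the lowest miR-451a sample. At an unadjusted p under 0.05, 8 genes were higher in miR-451a TAMs and 1 lower, against 3.01% and 1.54% of all tested genes. Stmn1, a regulator of microtubules, had 6.31 ± 0.665 and 7.91 ± 0.817 FPKM, Ccnb2, a mitotic cyclin, 1.51 ± 0.2805 and 2.17 ± 0.530 FPKM, and Plk1, a mitotic kinase, 1.46 ± 0.0804 and 1.73 ± 0.180 FPKM. Pcna, the replication clamp, was the exception, with 39.6 ± 2.07 and 36.8 ± 1.21 FPKM. Many of these genes lay near the filter of 1 FPKM, and with a filter of 5 FPKM the 22 that were left had a family difference of 0.0397 (−0.00646 to 0.0956), an interval that took in 0.

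Genes of alternative activation did not separate the groups. The family mean of 16 tested genes was 3.95 ± 0.0472 and 3.96 ± 0.0945, a difference of 0.01 (−0.09 to 0.14). Mrc1, the mannose receptor CD206, had 58.3, 67.5, 100, 99.6 and 53.9 FPKM in the miR-144 samples and 75.8, 80.4, 101, 110 and 57.2 in the miR-451a samples. Replicates 3 and 4 were the highest of both groups and replicate 5 the lowest, and the miR-451a sample was the higher one at each of the 5 numbers. The groups overlapped, with a difference of 0.17 (−0.31 to 0.66) that ranged from 0.07 without miR-144 replicate 5 to 0.31 without miR-451a replicate 5. Stab1, a scavenger receptor, had 251 ± 21.2 and 276 ± 18.3 FPKM, and Clec7a, the beta-glucan receptor dectin-1, 125 ± 16.01 and 119 ± 7.61.

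Chil3, Retnla and Ccl8 of this family were high in control TAMs and low in both miRNA groups. Chil3, a chitinase-like protein, was at 0.169 to 0.488 and 0.295 to 0.690 FPKM, against 4011 to 5779 in controls. Retnla was listed at 0 in all 10. No difference between the 2 miRNA groups can be read for these 2 genes. Ccl8, a chemokine for monocytes, had a mean of 310 FPKM in controls, and it had 5.66, 3.45, 2.41, 2.14 and 2.66 FPKM in the miR-144 samples and 1.45, 0.915, 2.19, 2.22 and 1.52 in the miR-451a samples, with overlap and a difference of −0.65 (−1.12 to −0.18).

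Classical activation and antigen presentation genes showed no member with an unadjusted p under 0.05, where 4.56% of all tested genes had one, a share that would give few members in lists of this size. The 15 tested classical activation genes had a difference of −0.04 (−0.12 to 0.04). Fcgr1, the high-affinity receptor for IgG, had 122 ± 8.46 and 118 ± 6.39 FPKM, and Irf5, a transcription factor of inflammatory macrophages, 35.0 ± 3.87 and 35.3 ± 3.58. Nos2, inducible nitric oxide synthase, was at or below 0.0329 FPKM in all 10 samples. The 15 MHC class II presentation genes had a difference of −0.01 (−0.09 to 0.06), and the 24 genes of MHC class I and the immunoproteasome −0.01 (−0.13 to 0.11). Ctss, cathepsin S, which trims the invariant chain, had 3146 ± 198 and 2928 ± 204 FPKM, a difference of −0.10 (−0.24 to 0.03) that was 0.03 after quantile normalization.

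The type I interferon-stimulated genes varied most between samples of 1 group. The family mean of 51 tested genes was 5.14, 5.07, 4.87, 4.73 and 5.21 in the miR-144 samples and 5.09, 5.06, 4.799, 4.68 and 5.22 in the miR-451a samples. In both groups replicate 5 was the highest and replicate 4 the lowest, and the order of the 5 numbers was the same. The range within a group, 0.486 and 0.548, exceeded the group difference of −0.03 (−0.40 to 0.33). Of the members 40 of 51 were below 0, where 54.1% of all tested genes were above 0, and none had an unadjusted p under 0.05, against 4.56% of all tested genes. Ifitm3, a membrane protein that blocks viral entry, had 677 to 1079 FPKM in the miR-144 samples and 718 to 1066 in the miR-451a samples. Ifi27l2a had 333 ± 65.9 and 325 ± 41.0 FPKM. The 14 interferon-gamma-induced GTPases, which attack the vacuoles of microbes, had a difference of 0.02 (−0.12 to 0.15), with replicate 5 again highest and replicate 4 lowest in both groups.

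**Figure D5:**
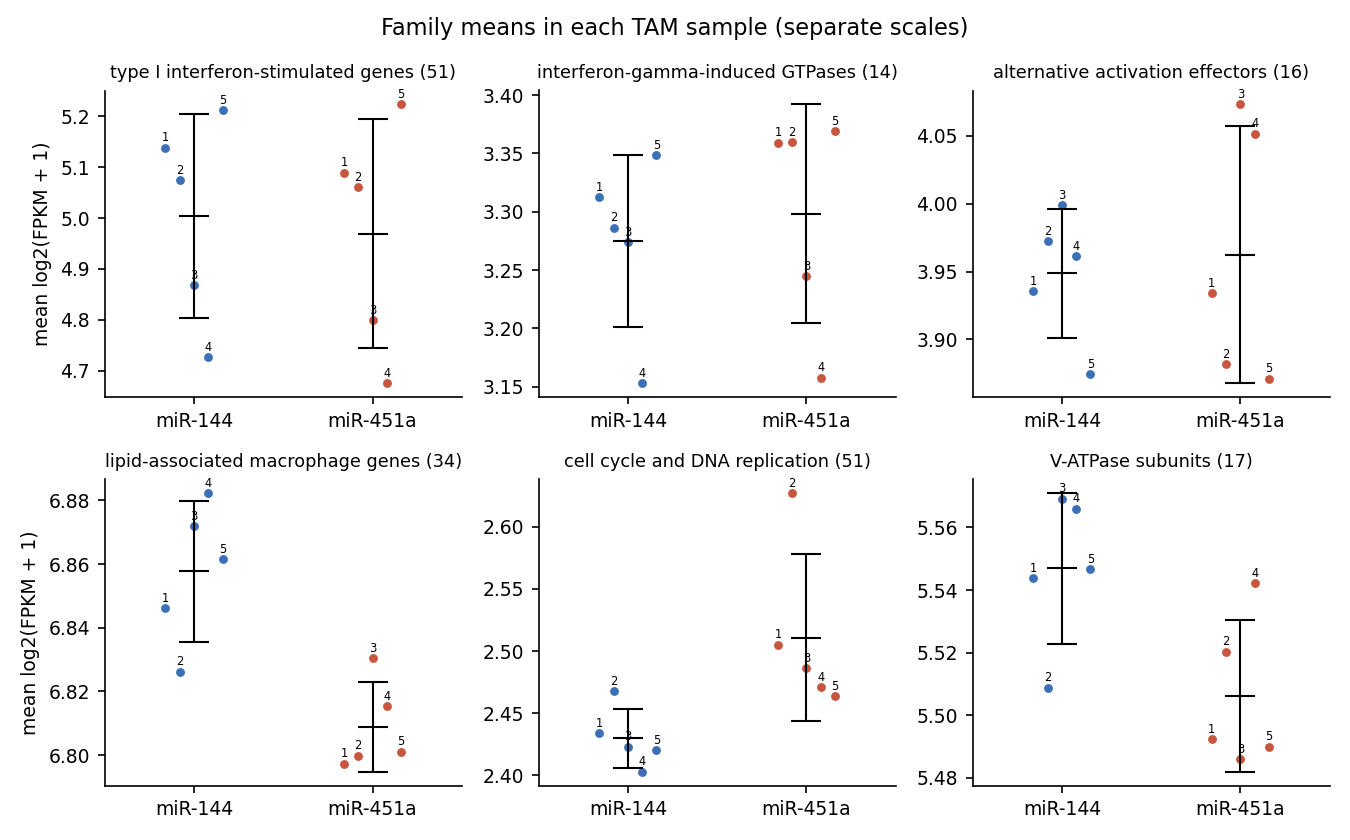
Mean log2(FPKM + 1) of 6 families in each sample, on separate scales, with the sample number beside each point and bars for mean ± SD of 5 samples. The type I interferon family spreads over 0.486 and 0.548 within the groups, while the lipid-associated and cell cycle families differ by −0.05 and 0.08 with little overlap.

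Chemokine ligands had the largest negative family difference, −0.06 (−0.19 to 0.04), which ranged from −0.0790 to −0.0208 over the alternatives. Of 15 tested genes 11 were below 0, where 54.1% of all tested genes were above 0. Cxcl12, the ligand of CXCR4, went the other way. It had 2.32 to 2.64 FPKM in the miR-144 samples and 8.66, 3.61, 3.73, 4.44 and 3.68 in the miR-451a samples, a difference of 0.65 (0.25 to 1.05) without overlap. Without miR-451a replicate 1 it was 0.45. The abundant ligands were close in level, Ccl9 at 122.6 ± 9.07 and 119 ± 10.8 FPKM, Ccl6 at 93.1 ± 7.20 and 95.6 ± 6.73 and Cxcl16 at 76.7 ± 3.40 and 73.5 ± 4.74. The 46 interleukins, TNF family members and their receptors had 30 differences above 0 and a family difference of 0.04 (−0.01 to 0.08). In that family 7 genes were higher and 1, Tnfrsf12a, the receptor for TWEAK, lower at an unadjusted p under 0.05, against 3.01% and 1.54% of all tested genes on the scale used here. Il15, a cytokine for NK and CD8 T cells, had 6.85 ± 0.456 and 7.55 ± 0.397 FPKM, and Il1rn, the IL-1 receptor antagonist, 1.69 ± 0.255 and 2.35 ± 0.726, both named after their values were seen.

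Fcrls and Hpgd, with far higher levels in both miRNA groups than in control TAMs, had intervals between the miRNA groups that took in 0. Fcrls, an Fc receptor-like gene of microglia, had 93.5 ± 10.9 and 113 ± 22.5 FPKM against 5.42 in controls, a difference of 0.26 (−0.04 to 0.55) between the miRNA groups. Hpgd, which breaks down prostaglandins, had 130 ± 20.02 and 139 ± 23.04 FPKM against 11.3 in controls, a difference of 0.10 (−0.20 to 0.39). Vsir, the checkpoint ligand VISTA, was close to its control level of 37.1 FPKM in most samples and had 39.6 to 48.3 FPKM in the miR-144 samples and 109, 105, 47.9, 46.0 and 44.0 in the miR-451a samples, so 2 samples set its difference of 0.56 (−0.02 to 1.14). P2ry12 and Ccr2, whose miRNA groups did not overlap, were also higher than in controls, where their means were 0.670 and 0.161 FPKM.

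Several families of housekeeping machinery had intervals that took in 0. The 83 cytosolic ribosomal proteins had a difference of 0.00 (−0.10 to 0.09), the 78 mitochondrial ribosomal proteins −0.01 (−0.04 to 0.02), the 40 proteasome subunits −0.01 (−0.05 to 0.02) and the 160 solute carriers 0.00 (−0.02 to 0.03). The 45 heat shock proteins and chaperones had a difference of −0.01 (−0.03 to 0.02), with 4 genes lower and none higher at an unadjusted p under 0.05, against 1.54% and 3.01% of all tested genes. Among the 4 were Hspa5 and Dnajb11 of the endoplasmic reticulum, at 128 ± 1.47 and 122.9 ± 2.11 and at 28.6 ± 0.824 and 26.8 ± 0.290 FPKM. The 10 Kruppel-like factors had a difference of 0.042 (0.0013 to 0.079), with Klf2, which restrains inflammation, at 8.67 ± 1.07 and 10.5 ± 1.79 FPKM. The 12 Kupffer cell genes had a difference of −0.01 (−0.18 to 0.17) and the 29 macrophage lineage factors −0.02 (−0.07 to 0.03).

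Summed markers of other cells overlapped between the groups. The monocyte list summed to 19.98 to 21.5 FPKM in the miR-144 samples and 20.7 to 27.5 in the miR-451a samples, and the stellate cell and fibroblast list to 217 to 298 and 252 to 325. At an unadjusted p under 0.05 were 1 of 5 tested monocyte genes, Ccr2, and 2 of 7 tested fibroblast genes, Col1a1 and Col1a2, against 4.56% of all tested genes. These collagen genes had 102 ± 19.2 and 124 ± 11.8 FPKM and 51.7 ± 5.69 and 60.8 ± 7.62 FPKM, both higher in miR-451a TAMs and both with overlap. The part of these cells in the small differences above was not tested. In sorted bulk samples, fewer cells of a type and less RNA per cell cannot be told apart.

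Genes with a seed match to either miRNA in their 3′ UTR had a median difference close to that of all genes. The match was the string complementary to seed bases 2 to 8, ATACTGT for miR-144-3p and AACGGTT for miR-451a, searched on the sense strand of the longest annotated 3′ UTR of 10047 tested genes. A miR-144-3p match occurred in 1416 genes (14.1%), with a median difference of 0.0078 against 0.0069 for all genes with a 3′ UTR and 3.53% at an unadjusted p under 0.05 against 4.63%. A miR-451a match occurred in 207 genes (2.06%), with a median of 0.0054 and 4.35%. Matched genes had longer 3′ UTRs, with medians of 2630 and 2209 bases against 1352. Hgf, Mif and Ezh2 held 0 matches to either in the mouse UTR searched, which says only that these letters are not there. The study reported luciferase assays in which miR-144 acted on the 3′ UTR of HGF and EZH2, and miR-451a on that of MIF. Shorter matches and other UTR forms were not searched here, so the search is no test of those assays. A match is a string in the sequence and not a shown target, and the lentivirus was given to the tumor cells.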

How the data were processed

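TAM samples from orthotopic tumors, 5 per miRNA, were compared, with groups and numbers taken from the sample labels. Trizol-extracted RNA was read on an Illumina HiSeq. What the authors deposited is 1 FPKM value for each gene in each sample. The submitters' processing notes name FastQC 0.11.2, STAR and StringTie, without role or order. The genome build and annotation are not given in the sources used here. FPKM hold no read counts, and 46.0% to 53.2% of low values in the 10 samples lay on a multiple of 1 fragment (10% by chance), so no count model was used and the implied depths are estimates.

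Genes whose average over the 10 samples reached 1 FPKM were tested on log2(FPKM + 1) with limma 3.58.1 (R 4.3.3, mean-variance trend, two-sided, Benjamini-Hochberg). This pseudocount understates the change of low genes. The fit was tested on simulated data. Family intervals invert an exact permutation test, two-sided. Gene coordinates and overlaps come from GENCODE M21, where 99.67% of identifiers occur. Missing symbols of 3225 rows were filled from the same annotation, and for repeated symbols the row with the highest mean was used. Overlapping genes and close copies are uncertain. Python 3.11.15, numpy 2.4.6, pandas 2.3.3, scipy 1.17.1 and matplotlib 3.10.9 were used.

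The comparison, the families and the other gene lists were chosen with earlier results of these data known. Named genes were the 8 with the smallest p and the 5 with the largest difference in each direction, leaving out symbols that start with Gm and a digit or end in Rik, the measured factors of the study with their receptors, sort genes, the member of each family with the smallest p, the 3 most abundant members of 5 families, and Fcrls and Hpgd. Ank, Apoe, Atp6v0d2, Ccnb2, Chil3, Fabp5, Hspa5, Il15, Il1rn, Lgals3, Lpl, Nos2, Paqr7, Pcna, Plk1, Retnla, Scd2 and the marker genes of other cells were named after their values were seen. Some genes that the rule selects are not reported here. Alternatives were another pseudocount, other filters, 3 other scalings, a replicate block, no trend, all 3 groups in 1 fit and leaving out each sample.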

Additional observations from a re-analysis of the deposited data

Results flagged for a closer look

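In each group of 5, the highest or lowest sample was compared with its nearest neighbor, for the named genes and the families. This was done in 278 groups, of which chance flags about 1 in 20, or 13.9, and 15 (5.40%) had a sample that stood apart. The number of such groups was thus close to that rate, and 4 of them concerned miR-451a replicate 5. Many of the genes were picked by their p or difference in the same data, so the rate is a guide and not a test.

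C5ar1 had 19.7 FPKM in miR-451a replicate 5, where the next sample had 158. Sar1a had 10.1 FPKM in miR-144 replicate 5, next to 21.4. Rab7b, a GTPase of late endosomes, had 36.2 FPKM in miR-144 replicate 2, next to 26.2. Cxcl12 had 8.66 FPKM in miR-451a replicate 1, next to 4.44, and 2.32 in miR-144 replicate 3, next to 2.59.

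Further samples stood apart for Mmp12 at 13.4 FPKM in miR-144 replicate 2, Cmtr2 at 2.87 in miR-144 replicate 5, Tmem173 at 12.9 in miR-144 replicate 4 and Rfxank at 3.998 in miR-144 replicate 3. In miR-451a replicate 5, Bok had 0.994 FPKM, Cxcr4 199 and Fcgr1 129. Among the families, the chemokine ligands had a mean log2(FPKM + 1) of 3.58 and the cell cycle genes of 2.63 in miR-451a replicate 2, and the respiratory chain genes of 4.71 in miR-144 replicate 1.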

How the results depend on the processing

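No gene was called under the other pseudocount, filters, scalings, without trend, with the replicate block or with all 3 groups in 1 fit, where the smallest adjusted p ranged from 0.0741, for P2ry12 with all 3 groups, to 0.627. Leaving out 1 sample gave 0 to 1 calls. The single call, Paqr7, came without miR-144 replicate 1 (log2 difference −0.86, adjusted p 0.0221 in limma), a sample with 6.18 FPKM of Paqr7 against 11.3 to 14.5 in the other miR-144 samples and 5.94 to 7.44 in the miR-451a samples. Without a filter, 1188 genes had an unadjusted p under 0.05, 194 did not overlap and 27501 intervals lay inside 1.5-fold, and with a minimum mean of 5 FPKM 271, 61 and 6419, because 28353 and 6678 genes were tested. Leaving out 1 sample gave 158 to 218 genes without overlap, since 4 samples overlap less often with 5. Families without overlap numbered 2 with a minimum mean of 5 FPKM (lipid-associated and Kruppel-like), 1 after median centring (cell cycle) and 0 to 3 when leaving out 1 sample. The 3, lipid-associated, cell cycle and V-ATPase, came without miR-144 replicate 2, the lipid-associated family alone without miR-451a replicate 3 and the cell cycle family alone without miR-451a replicate 5. The interval of the V-ATPase family included 0 after quantile normalization and rescaling to TPM, that of the Kruppel-like factors in all 3 scalings and with a pseudocount of 0.1 FPKM, that of the cell cycle family with a minimum mean of 5 FPKM, and that of the lipid-associated family in none of these 5 alternatives. The interval of the splicing factors left out 0 after rescaling to TPM. Of 90 named genes 80 kept their sign in all 19 alternatives. The log2 difference of Csf1r was −0.00579 after median centring and the log2 difference of Ctss 0.0347 after quantile normalization. Signs turned when leaving out 1 sample for Adgre1 (−0.0534 to 0.00625), Csf1r (−0.0136 to 0.0271), Ezh2 (−0.0483 to 0.0102), Hgf (−0.0274 to 0.0464), Ifi27l2a (−0.115 to 0.0543), Ifitm3 (−0.162 to 0.00588), Irf5 (−0.0311 to 0.0741), Lgals3bp (−0.130 to 0.118) and Ptprc (−0.0482 to 0.0587).

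The replicate block, which pairs samples of the same number, gave 0 calls (smallest adjusted p 0.127, for Ndufa4l2) and 686 genes with an unadjusted p under 0.05 against 523. The deviations of same-numbered samples from their group means correlated at −0.135 to 0.242, over 0.1 for 4 of 5 numbers and not for all, so the numbers were not taken as pairs. Of the miR-144 samples 1 of 5 and of the miR-451a samples 4 of 5 correlated best with their own number, which is a hint from the data and not from the design. In the type I interferon family the differences between same-numbered samples were −0.07 to 0.01, and Mrc1, higher in the miR-451a sample at all 5 numbers, had an adjusted p of 0.816 with the block in limma.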

Other observations

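Further members of the families gave the following values in miR-144 and then miR-451a TAMs, none with an adjusted p under 0.05 in limma. Gpx3, a secreted glutathione peroxidase, had 73.8 to 84.6 and 86.0 to 92.7 FPKM without overlap, a log2 difference of 0.16 (95% interval 0.07 to 0.24). Id2, an inhibitor of helix-loop-helix factors, had 21.4 to 23.5 and 18.4 to 21.3 FPKM, also without overlap (−0.14, −0.24 to −0.05). Atf3, a stress-induced transcription factor, had 67.7 ± 4.03 and 60.7 ± 4.51 FPKM (mean ± SD, n = 5) and overlapped. Itgal, the alpha chain of the integrin LFA-1, had 5.26 ± 0.534 and 6.19 ± 0.628 FPKM, and Siglece, an inhibitory lectin, 4.30 ± 0.329 and 5.01 ± 0.2804. Slc37a2, a sugar phosphate transporter of macrophages, had 70.3, 48.8, 69.4, 49.3 and 72.0 FPKM in the miR-144 samples and 45.4 to 48.3 in the miR-451a samples, so 2 miR-144 samples lay next to the miR-451a group and 3 far above it.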
